A study of Mus musculus with 4 samples.

Results

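The Fc gamma receptor genes of the mouse kidney were taken by name from the deposited gene lists. They are Fcgr1, Fcgr3 and Fcgr4, which encode activating receptors for IgG, Fcgr2b, which encodes the inhibitory receptor, and Fcer1g, which encodes the signalling chain of the activating receptors. All 5 symbols were present among the 16706 genes measured. Their transcripts were counted in macrophages, monocytes, dendritic cells, NK cells, B cells and neutrophils of 4 single-cell RNA libraries of whole kidney. The animals were male C57Bl/6 mice carrying Pax2.rtTA;TetO.Cre;R26.Confetti, 9 weeks old, and every group, the vehicle group included, had received anti-GBM serum, which sets off an antibody-driven nephritis against the glomerular basement membrane. The drug groups received panobinostat at 15 mg/kg or givinostat at 10 mg/kg, both histone deacetylase inhibitors, or ruxolitinib at 60 mg/kg, a JAK1 and JAK2 inhibitor, from day 1 until sacrifice on day 7. The vehicle group received distilled water. Each group had 2 mice and 1 library, and the labels do not say whether the mice were pooled. The vehicle library was recognised by its barcode name, which carries no drug. The Pax2-driven Cre is induced through rtTA and labels Pax2-lineage cells with Confetti colours, which were not used here.

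With 1 library per group, no difference below was tested and none has a replicate check. Each interval in square brackets is an exact 95% interval that covers counting error only. All drug ratios share the vehicle library. After filtering, 4396 cells remained with panobinostat, 3472 with givinostat, 3979 with ruxolitinib and 3930 with vehicle, at library totals of 36861583 to 45075309 unique molecular identifiers (UMIs, 1 per captured transcript molecule). Between libraries, 19 barcodes were shared, carried by 38 cells. The libraries fell into pairs by some transcripts: Tpm3-rs7 stood at 53.8 CPM (counts per 1000000 UMIs) with givinostat and at 53.8 CPM with ruxolitinib, against 3.96 CPM with panobinostat and 4.14 CPM with vehicle. For givinostat and ruxolitinib, the drug and whatever sets this pairing cannot be told apart.

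IgG bound to its antigen engages Fc gamma receptors on leukocytes. Fcgr1, Fcgr3 and Fcgr4 proteins reach the cell surface together with the Fc gamma chain, whose immunoreceptor tyrosine-based activation motif (ITAM) is phosphorylated by Src family kinases and then recruits Syk. Fcgr2b carries an inhibitory motif (ITIM) in its own tail and recruits the lipid phosphatase SHIP1, which counters activation by complexes that engage both kinds of receptor. In nephritis driven by antibody to the glomerular basement membrane, these receptors are a main route by which deposited IgG acts on phagocytes.

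On chromosome 1, 4 members lie together within 275749 bases (GRCm38, GENCODE vM21). Fcgr2b (ENSMUSG00000026656.15) spans 170958617 to 170976547 on the minus strand, Fcgr4 (ENSMUSG00000059089.4) 171018920 to 171029761 on the plus strand, Fcgr3 (ENSMUSG00000059498.13) 171051174 to 171064935 on the minus strand and Fcer1g (ENSMUSG00000058715.11) 171229572 to 171234365 on the minus strand. Fcgr1 (ENSMUSG00000015947.10) lies on chromosome 3, 96282909 to 96293969, minus strand. The promoters of the 3 activating receptors and of the inhibitory receptor are shown, because the receptors differed in the cells that carried them. Each window runs 5′ to 3′ along its gene's strand, from 250 bases before to 50 after the transcription start (RefSeq sequence, GRCm38.p6). Capitals mark matches on either strand to TTCNNNGAA, the letters of a gamma-activated site, an interferon gamma response element, and to GAGGAA, a core bound by the myeloid factor PU.1, which reads TTCCTC on the other strand.
Fcgr1, chr3:96293920-96294219, minus strand: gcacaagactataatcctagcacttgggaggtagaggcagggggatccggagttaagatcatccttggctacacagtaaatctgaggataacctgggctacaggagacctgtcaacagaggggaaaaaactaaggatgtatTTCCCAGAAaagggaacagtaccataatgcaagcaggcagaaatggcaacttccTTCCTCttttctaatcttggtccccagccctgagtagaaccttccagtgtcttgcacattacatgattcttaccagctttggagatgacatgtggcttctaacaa
Fcgr3, chr1:171059354-171059653, minus strand: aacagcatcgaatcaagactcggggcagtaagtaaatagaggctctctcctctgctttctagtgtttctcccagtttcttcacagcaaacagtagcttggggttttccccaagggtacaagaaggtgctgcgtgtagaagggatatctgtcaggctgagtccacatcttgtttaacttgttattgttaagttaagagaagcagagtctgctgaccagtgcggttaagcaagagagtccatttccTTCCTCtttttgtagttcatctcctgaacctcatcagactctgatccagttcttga
Fcgr4, chr1:171018676-171018975, plus strand: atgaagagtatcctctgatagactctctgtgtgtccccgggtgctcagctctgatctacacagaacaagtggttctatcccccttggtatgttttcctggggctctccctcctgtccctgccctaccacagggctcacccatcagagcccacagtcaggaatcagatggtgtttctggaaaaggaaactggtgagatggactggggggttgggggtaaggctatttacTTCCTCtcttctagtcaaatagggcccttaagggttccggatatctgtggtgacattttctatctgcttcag
Fcgr2b, chr1:170976022-170976321, minus strand: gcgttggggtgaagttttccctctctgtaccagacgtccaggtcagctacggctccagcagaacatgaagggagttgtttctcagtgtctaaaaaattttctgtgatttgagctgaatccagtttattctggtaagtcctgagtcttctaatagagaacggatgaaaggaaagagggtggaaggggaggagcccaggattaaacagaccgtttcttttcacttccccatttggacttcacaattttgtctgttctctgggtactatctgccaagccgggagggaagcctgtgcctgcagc
The Fcgr1 window held TTCCCAGAA starting at -109 from the start site and TTCCTC at -55, with no overlap between them. The Fcgr4 window held TTCCTC at -22 and the Fcgr3 window held it at -6, counted from the first of 2 RefSeq starts of that gene. Neither set of letters occurred in the windows of Fcgr2b or Fcer1g. Of 32851 promoter windows of the same length, 8.30% held TTCNNNGAA and 28.3% held GAGGAA, so the second match is common. These are letter matches and no binding was measured.

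Cells were grouped by clustering without the 5 genes and named from marker genes, hence "macrophage-like" and so on. In every library the markers of each class stood above their level in proximal tubule cells: 11 of 11 in macrophage-like, 10 of 10 in classical monocyte-like, 10 of 10 in non-classical monocyte-like, 9 of 9 in Cd209a dendritic-like, 9 of 9 in NK-like and 8 of 8 in B-like cells. Macrophage-like cells numbered 98 with panobinostat, 134 with givinostat and 147 with ruxolitinib, against 115 with vehicle. Classical monocyte-like cells numbered 118 with panobinostat, 148 with givinostat and 114 with ruxolitinib, against 63 with vehicle. Non-classical monocyte-like cells numbered 75 to 128 per library, Cd209a dendritic-like cells 119 to 147 and NK-like cells 54 to 106. Neutrophil-like cells, with 7 or 8 of 8 measured markers above tubule, numbered only 12 to 22 and B-like cells 12 to 56. A level below is the CPM of a gene, its UMIs scaled to the UMIs of that class in that library, counted at the 3′ end and not scaled by length.

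Fcgr1, the high-affinity IgG receptor, was highest in macrophage-like cells. These cells held 319 CPM with panobinostat, 350.5 CPM with givinostat and 269.5 CPM with ruxolitinib, against 275 CPM with vehicle. Classical monocyte-like cells held 82.7 CPM with panobinostat, 148 CPM with givinostat and 81.9 CPM with ruxolitinib, against 71.9 CPM with vehicle. The intervals of these classes did not overlap in any library. Non-classical monocyte-like cells held 28.8 to 43.2 CPM and Cd209a dendritic-like cells 34.0 to 55.3 CPM over the 4 libraries. NK-like cells gave 0 UMIs in 3 libraries and 1 UMI with ruxolitinib. The share of macrophage-like cells with an Fcgr1 UMI was 70.4% with panobinostat, 82.8% with givinostat and 79.6% with ruxolitinib, against 73.9% with vehicle, at median depths of 4337 to 7954 UMIs per cell. Proximal tubule-like cells, deeper at medians of 7681 to 12890 UMIs, had such a UMI in 0.222% to 0.50%, which is the background. After thinning every cell to 2500 UMIs the macrophage-like share was 44.9% with panobinostat, 50% with givinostat and 49.0% with ruxolitinib, against 47.0% with vehicle. The differences between libraries seen at full depth were thus smaller at equal depth.

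Fcgr3, a low-affinity activating receptor, was carried by phagocytes and, at a much lower level, by NK cells. Macrophage-like cells held 488 CPM with panobinostat, 546 CPM with givinostat and 634 CPM with ruxolitinib, against 681 CPM with vehicle. Classical monocyte-like cells held 384 CPM with panobinostat, 374 CPM with givinostat and 419 CPM with ruxolitinib, against 405 CPM with vehicle. Non-classical monocyte-like cells followed at 179 to 202 CPM, and the step between the monocyte kinds exceeded counting error in every library. Neutrophil-like cells, at 147 to 268 CPM on few cells, overlapped the non-classical monocyte-like cells. NK-like cells, whose antibody-dependent killing runs through this receptor, held 57.6 CPM with panobinostat, 44.1 CPM with givinostat and 57.2 CPM with ruxolitinib, against 50.9 CPM with vehicle. Fcgr3 made up 67.4% of the receptor UMIs of NK-like cells over all libraries (93 of 138). Proximal tubule-like cells held only 0.563 to 0.860 CPM.

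Fcgr4, an activating receptor for mouse IgG2 subclasses, was highest in non-classical monocyte-like cells. They held 411 CPM with panobinostat, 295 CPM with givinostat and 317 CPM with ruxolitinib, against 349.7 CPM with vehicle, on 160 to 349 UMIs. Classical monocyte-like cells held 12 CPM with panobinostat, 24.0 CPM with givinostat and 29.6 CPM with ruxolitinib, against 24.7 CPM with vehicle, on 9 to 45 UMIs. The monocyte kinds therefore differed by more than 10-fold in each library, with intervals far apart. Macrophage-like cells lay between them at 198 to 237 CPM, and neutrophil-like cells, at 103 to 204 CPM, overlapped macrophage-like cells. No Fcgr4 UMI was found in 320 NK-like cells, a depth that allows up to 1.63 CPM and up to 0.938% of cells with a UMI. Thinned to 2500 UMIs, 46.7% to 55.7% of non-classical monocyte-like cells had an Fcgr4 UMI, and 2.63% to 6.35% of classical monocyte-like cells did.

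Fcgr2b, the inhibitory receptor, was highest in macrophage-like cells, at 509 CPM with panobinostat, 685 CPM with givinostat and 585 CPM with ruxolitinib, against 573 CPM with vehicle. Classical monocyte-like cells held 156 CPM with panobinostat, 221 CPM with givinostat and 208 CPM with ruxolitinib, against 284 CPM with vehicle. Cd209a dendritic-like cells overlapped them, at 209 CPM with panobinostat, 194 CPM with givinostat and 185 CPM with ruxolitinib, against 252 CPM with vehicle. Non-classical monocyte-like cells held 113 to 163 CPM over the 4 libraries. B-like cells, in which Fcgr2b dampens antigen receptor signals, held 61.2 to 113 CPM, and it made up 83.8% of their receptor UMIs (62 of 74). It made up 89.2% in Xcr1 dendritic-like cells (141 of 158) and 77.0% in plasmacytoid dendritic-like cells (47 of 61). NK-like cells held 15.7 to 32.3 CPM, and T-like cells, read here as background, 0.687 to 3.11 CPM.

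Fcer1g, the Fc gamma chain, gave more UMIs than any of the 4 receptors in macrophage-, monocyte-, dendritic- and NK-like cells of every library. Non-classical monocyte-like cells held 3212 CPM with panobinostat, 2608 CPM with givinostat and 2638 CPM with ruxolitinib, against 3084 CPM with vehicle. Macrophage-like cells held 2462 CPM with panobinostat, 2172 CPM with givinostat and 2350.3 CPM with ruxolitinib, against 2477 CPM with vehicle, and classical monocyte-like cells 2059 to 2524 CPM. NK-like cells, where the chain also serves receptors of other families, held 1774 CPM with panobinostat, 1453 CPM with givinostat and 1631 CPM with ruxolitinib, against 2010.0 CPM with vehicle. Cd209a dendritic-like cells held 1364 to 1761 CPM and plasmacytoid dendritic-like cells 747 to 952 CPM, whereas Xcr1 dendritic-like cells held only 160.0 to 229 CPM. The dendritic kinds thus stood apart in the chain, and Xcr1 dendritic-like cells combined little of it with Fcgr2b as their main receptor.

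**Figure D1:**
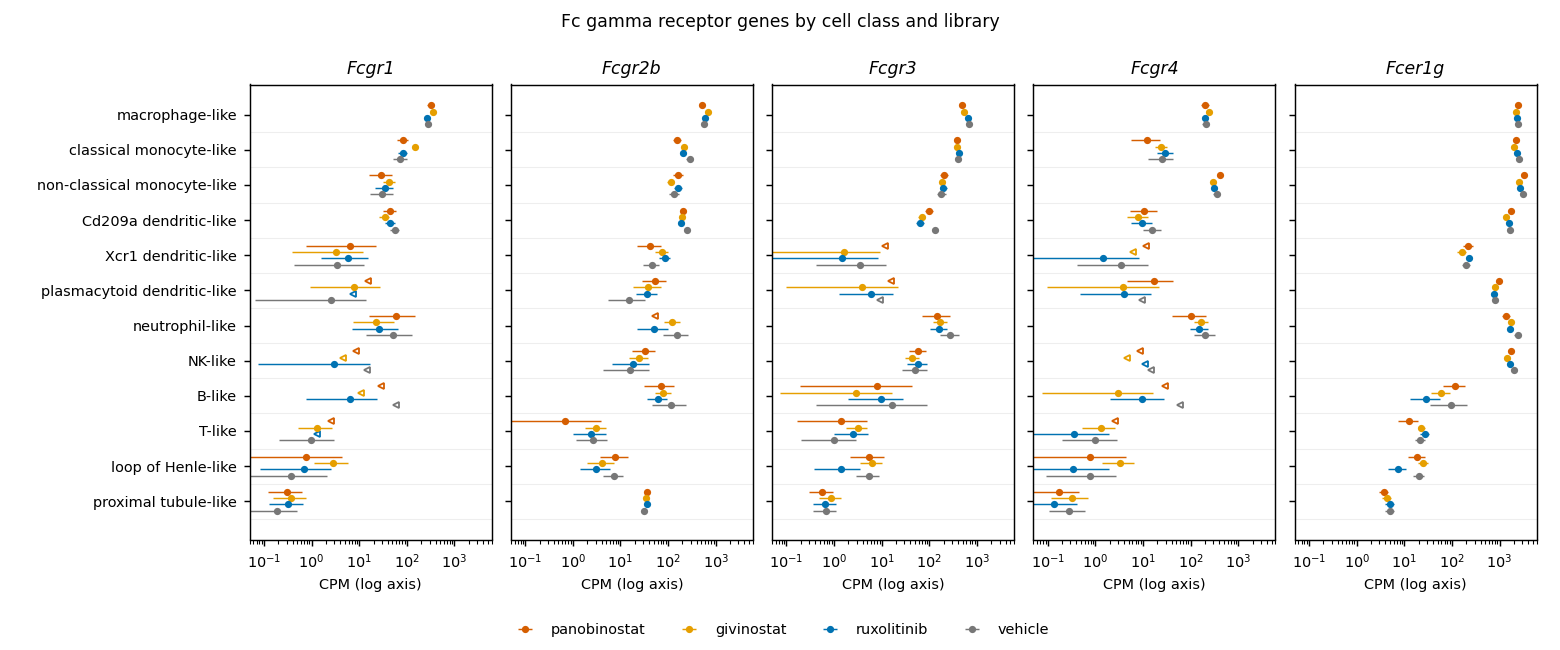
Level of each of the 5 genes (CPM, log axis) by cell class. Points are the 4 libraries with exact 95% Poisson intervals, and open left triangles give the upper limit where no UMI was counted. Fcgr1, Fcgr2b and Fcgr3 are highest in macrophage-like cells, and Fcgr4 and Fcer1g in non-classical monocyte-like cells.

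Each class thus carried its own mixture of receptors. In macrophage-like cells Fcgr2b gave 33.0% to 37.7% of the UMIs of the 4 receptors and Fcgr3 30% to 39.2%. In classical monocyte-like cells Fcgr3 led with 60.5% with panobinostat, 48.8% with givinostat and 56.7% with ruxolitinib, against 51.6% with vehicle, and Fcgr4 gave 1.89% to 4.01%. In non-classical monocyte-like cells Fcgr4 led with 51.2% with panobinostat, 46.2% with givinostat and 44.9% with ruxolitinib, against 50.5% with vehicle. The leading receptor of each monocyte kind was the same in all 4 libraries. Cd209a dendritic-like cells were led by Fcgr2b, with 55.5% to 63.8%. Single macrophage-like cells often carried the whole set: 224 of 494 (45.3%) had a UMI of all 4 receptors, and 12.1% did after thinning to 2500 UMIs. Without thinning that share was 5.87% in classical and 7.61% in non-classical monocyte-like cells.

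**Figure D2:**
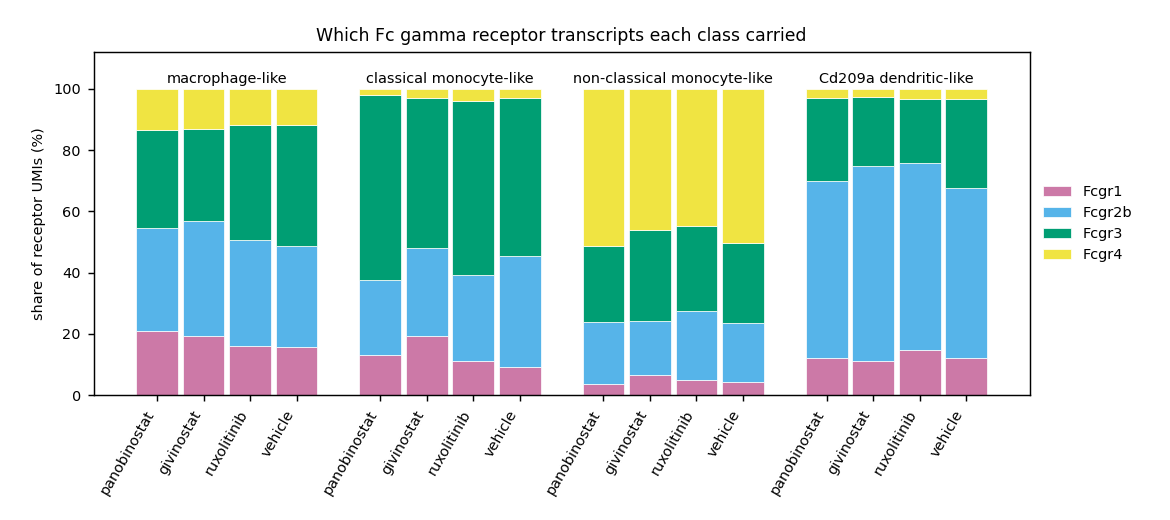
Share (percent) of the summed Fcgr1, Fcgr2b, Fcgr3 and Fcgr4 UMIs held by each receptor, stacked by library, in 4 cell classes. Fcgr3 leads in classical and Fcgr4 in non-classical monocyte-like cells of every library.

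Over macrophage- and monocyte-like cells together, the inhibitory receptor gave 27.6% [25.5 to 29.9] of receptor UMIs with panobinostat (446 of 1614), 31.4% [30 to 32.8] with givinostat (1389 of 4429) and 31.2% [29.5 to 32.9] with ruxolitinib (940 of 3016), against 31.4% [29.4 to 33.5] with vehicle (633 of 2014). The intervals of each drug overlapped that of vehicle, for panobinostat only at their ends. Overlap does not show that a difference was within counting error, and no interval for the ratio of shares was computed. Activating receptor UMIs per Fcgr2b UMI were 2.62 with panobinostat, 2.19 with givinostat and 2.21 with ruxolitinib, against 2.18 with vehicle. The classes differed in number between libraries, and with equal weight for each of the 3 classes the Fcgr2b share was 26.1% with panobinostat, 28.0% with givinostat and 28.5% with ruxolitinib, against 29.5% with vehicle. Fcer1g UMIs per activating receptor UMI were 3.82 with panobinostat, 3.16 with givinostat and 3.20 with ruxolitinib, against 3.27 with vehicle. By class this chain-to-receptor ratio was lowest in macrophage-like cells, at 1.92 to 2.43, and higher in non-classical monocyte-like cells, at 4.83 to 5.51.

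Drug and vehicle libraries were set side by side to ask whether the treatments went with a change in these receptors. A gene was counted as past 1.5-fold on log2(CPM + 5) ratios where it reached 20 CPM in either library. Over macrophage- and monocyte-like cells together, 0 of 5 members passed with each drug, while 6.08% of all genes did with panobinostat, 6.49% with givinostat and 4.02% with ruxolitinib. The median log2 ratio of the 5 members was -0.16 with panobinostat, -0.24 with givinostat and -0.12 with ruxolitinib, beside 0.03, 0.07 and 0.05 for all genes tested with these drugs. These pooled medians also carry the mix of classes, which differed in number between libraries. In macrophage-like cells alone the median of the members was -0.03 with panobinostat, 0.19 with givinostat and -0.07 with ruxolitinib. In classical monocyte-like cells it was -0.16, -0.11 and 0.05 with these drugs, and in non-classical monocyte-like cells 0.17 with panobinostat. Within macrophage-like cells, 0 of 5 passed with each drug against 19.6% of genes with panobinostat, 16.1% with givinostat and 15.4% with ruxolitinib, and within non-classical monocyte-like cells 0 of 5 against 19.7%, 14.9% and 16.5% with the drugs in the same order. The shares count every gene from 20 CPM up, and no share matched to the level of the members was computed. None of the 5 genes was past this fold in macrophage-like, non-classical monocyte-like or pooled cells. With only 5 genes, a count of 0 does not set them apart from such shares. The smaller differences that exceeded counting error are given next.

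In macrophage-like cells, Fcgr3 over vehicle was 0.717 [0.612 to 0.837] with panobinostat, 0.801 [0.713 to 0.90] with givinostat and 0.931 [0.829 to 1.05] with ruxolitinib. Fcgr1 was 1.28 [1.08 to 1.51] and Fcgr2b 1.20 [1.06 to 1.34] times vehicle with givinostat, whereas the panobinostat and ruxolitinib intervals of both included 1. For Fcgr4 in macrophage-like cells the ratio was 0.982 [0.756 to 1.27] with panobinostat, 1.15 [0.94 to 1.40] with givinostat and 0.955 [0.773 to 1.18] with ruxolitinib, so differences beyond 1.5-fold lay outside each interval. The macrophage markers of these cells, summed, stood at 24507 CPM with panobinostat, 30000 CPM with givinostat and 27228 CPM with ruxolitinib, against 35402 CPM with vehicle, and their part in these ratios was not tested.

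In classical monocyte-like cells, 2 of 5 members were past 1.5-fold with panobinostat, both lower, beside 17.3% of genes either way and 10.3% lower. Fcgr2b stood at 156 CPM with panobinostat against 284 CPM with vehicle, a ratio of 0.550 [0.426 to 0.709]. Fcgr4 was the other, but on 9 and 12 UMIs its ratio of 0.487 [0.181 to 1.26] was within counting error. Fcgr2b was also lower with givinostat, at 0.778 [0.640 to 0.95] times vehicle, and with ruxolitinib, at 0.734 [0.590 to 0.917] times vehicle. The inhibitory receptor was thus below the single vehicle library in all 3 drug libraries, and the vehicle value rests on 138 UMIs of 63 cells. With panobinostat the log2 ratio lay between -0.88 and -0.79 under every alternative. With givinostat 1 of 5 members was past 1.5-fold, beside 14.9% of genes either way and 9.51% higher. That member was Fcgr1, at 148 CPM with givinostat against 71.9 CPM with vehicle, a ratio of 2.05 [1.44 to 3.01]. Panobinostat gave 1.15 [0.748 to 1.79] and ruxolitinib 1.14 [0.759 to 1.74] for Fcgr1. Thinned to 2500 UMIs, 26.4% of givinostat and 14.3% of vehicle classical monocyte-like cells had an Fcgr1 UMI. With cells named one by one the log2 ratio of Fcgr1 with givinostat was 0.58, just within 1.5-fold, where the clusters gave 0.99. With ruxolitinib 0 of 5 passed, beside 16% of genes.

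In Cd209a dendritic-like cells, 4 members reached the 20 CPM floor. Of these, 0 were past 1.5-fold with panobinostat, beside 7.65% of genes. With givinostat 2 were, both lower, beside 8.75% of genes either way and 2.28% lower, and with ruxolitinib 1 was, lower, beside 8.48% either way and 3.34% lower. Fcgr3 stood at 68.5 CPM with givinostat and 63.9 CPM with ruxolitinib against 131 CPM with vehicle, ratios of 0.522 [0.418 to 0.650] and 0.487 [0.380 to 0.621]. Fcgr1 was 0.614 [0.442 to 0.854] times vehicle with givinostat. The class joined 2 clusters in unlike proportions: a smaller cluster with Mmp12, Fcrls and Mgl2 among its leading genes gave 20 cells with panobinostat, 19 cells with givinostat and 15 cells with ruxolitinib, against 35 cells with vehicle. It held more Fcgr2b, at 413 CPM with panobinostat, 396 CPM with givinostat and 462 CPM with ruxolitinib, against 589 CPM with vehicle. Within the larger cluster alone, Fcgr3 was 1.13 times vehicle with panobinostat, 0.544 [0.360 to 0.822] with givinostat and 0.695 [0.459 to 1.05] with ruxolitinib. Fcgr1 there was 0.517 [0.305 to 0.851] times vehicle with panobinostat, 0.499 [0.334 to 0.744] with givinostat and 0.571 [0.376 to 0.860] with ruxolitinib. Fcgr2b there was 1.10 times vehicle with panobinostat, 1.05 with givinostat and 0.957 with ruxolitinib, whereas over the whole class it was 0.828, 0.770 and 0.733 with these drugs. In the smaller cluster Fcgr1 was above vehicle, at 1.92 [1.01 to 3.64] times with panobinostat, 1.23 [0.668 to 2.30] with givinostat, an interval that included 1, and 2.24 [1.25 to 4.08] with ruxolitinib. Fcgr2b in the smaller cluster was 0.702 [0.528 to 0.924] times vehicle with panobinostat, 0.673 [0.532 to 0.848] with givinostat and 0.784 [0.607 to 1.01] with ruxolitinib. Fcgr2b was thus below vehicle beyond counting error in the smaller cluster with panobinostat and givinostat, and with no drug in the larger. Cells named one by one gave a log2 ratio of -0.09 for Fcgr1 with givinostat, where the clusters gave -0.63, and at clustering resolution 0.5 Fcgr3 gave -0.58 with givinostat and -0.30 with ruxolitinib, both within 1.5-fold.

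Among NK-like cells, 3, 3 and 2 members reached the floor with panobinostat, givinostat and ruxolitinib, and 1, 0 and 0 of them were past 1.5-fold, beside 29.1%, 25.2% and 31.8% of genes either way. The 1 was higher, as were 15.8% of genes there. It was Fcgr2b with panobinostat, on 14 UMIs against 4 with vehicle, a ratio of 2.06 [0.646 to 8.59]. Fcer1g in NK-like cells was 0.883 [0.788 to 0.989] times vehicle with panobinostat, 0.723 [0.651 to 0.803] with givinostat and 0.812 [0.718 to 0.918] with ruxolitinib. At clustering resolution 1.5 the log2 ratio of NK-like cells was 0.11 with panobinostat and 0.09 with givinostat, where the main clusters gave -0.18 and -0.47, and with cells named one by one it was 0.07 with panobinostat. The chain was below vehicle with givinostat in the other classes too, at 0.877 [0.826 to 0.931] in macrophage-like, 0.816 [0.765 to 0.871] in classical monocyte-like, 0.846 [0.794 to 0.901] in non-classical monocyte-like and 0.816 [0.773 to 0.862] in Cd209a dendritic-like cells. With panobinostat it was 0.994 [0.924 to 1.07] in macrophage-like cells and 1.04 [0.969 to 1.12] in non-classical monocyte-like cells. Givinostat cells were the deepest of the 4 libraries, at a median of 10020.5 UMIs per cell over the whole library against 7957.5 with vehicle, and the part of depth in the chain's ratios was not tested. With the unnamed cluster described below counted as macrophages, the log2 ratio of Fcer1g in macrophage-like cells with givinostat was 0.00068, where the main classes gave -0.19.

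**Figure D3:**
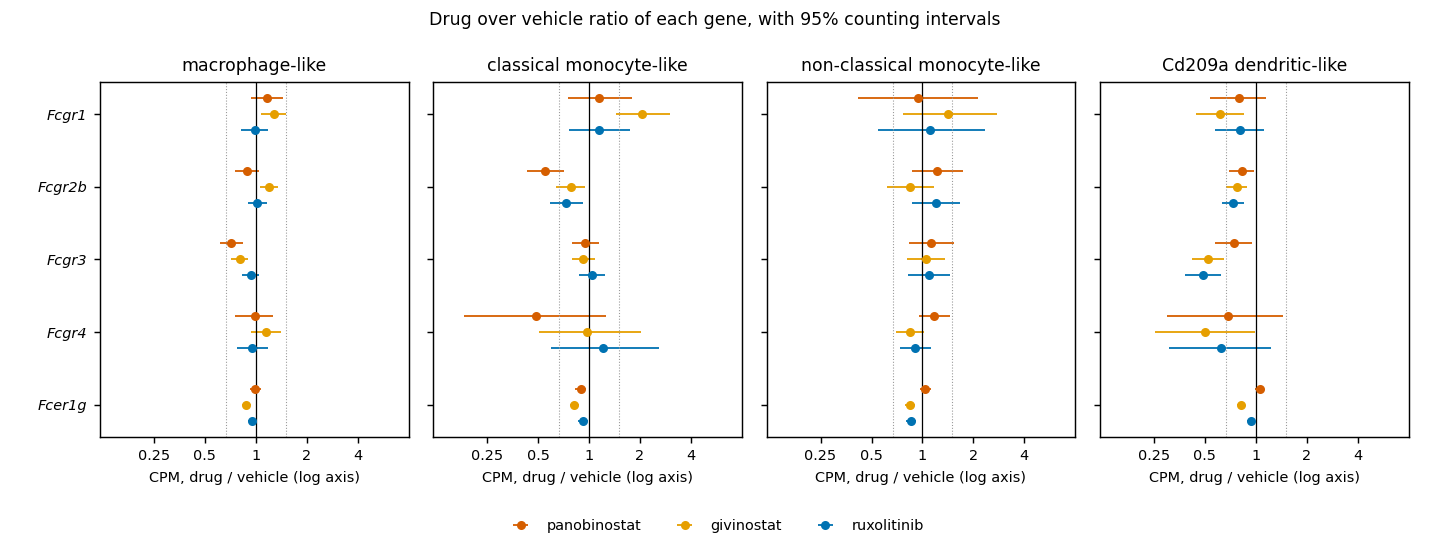
Ratio of CPM, drug over vehicle (log axis), for the 5 genes in 4 cell classes, with exact 95% intervals for counting error. Dotted lines mark 1.5-fold either way. Most points lie between the lines. Fcgr1 with givinostat (2.05) and Fcgr2b with panobinostat (0.550) in classical monocyte-like cells lie outside them.

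Over whole libraries the ratios departed from those within classes, beside differences in how many of these cells each library held. Macrophage- and monocyte-like cells made up 7.12% of cells with panobinostat, 11.8% of cells with givinostat and 8.92% of cells with ruxolitinib, against 6.44% of cells with vehicle. Whole-library Fcgr1 was 2.12 [1.90 to 2.37] times vehicle with givinostat, beside 1.17 within macrophage- and monocyte-like cells together. Whole-library Fcgr3, Fcgr4 and Fcer1g were 1.60, 1.85 and 1.55 times vehicle with givinostat, beside 0.796, 0.827 and 0.845 within those cells. With the unnamed cluster described below counted as macrophages, the log2 ratio of Fcgr4 over those cells was 0.03 with givinostat and 0.04 with ruxolitinib, where the main classes gave -0.27 and -0.22, and that of Fcgr2b was 0.02 with givinostat and 0.12 with ruxolitinib, where they gave -0.20 and -0.12. Ratios over macrophage- and monocyte-like cells together also carry the mix of classes, which differed between libraries. Classical monocyte-like cells numbered 148 with givinostat and 63 with vehicle. Fcgr4 with givinostat was above vehicle in macrophage-like cells alone, with an interval that included 1, as given above. In the summed library, more cells of a type and more RNA per cell cannot be told apart. Macrophage- and monocyte-like cells gave 73.1% to 78.4% of a library's Fcgr4 UMIs and 56.2% to 70.5% of its Fcgr1 UMIs. For Fcgr2b they gave only 23.7% with panobinostat, 43.3% with givinostat and 36.4% with ruxolitinib, against 31.5% with vehicle.

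Much of the other Fcgr2b lay in proximal tubule-like cells, the epithelium that reabsorbs most filtered solute. Their share of all Fcgr2b UMIs was 44.5% with panobinostat, 20% with givinostat and 30.5% with ruxolitinib, against 32.8% with vehicle, and they gave at most 1.79% of the UMIs of any other member. Their level was 36.2 CPM with panobinostat, 34.5 CPM with givinostat and 36.2 CPM with ruxolitinib, against 31.2 CPM with vehicle, on 641 to 836 UMIs. The ratio over vehicle was 1.16 [1.05 to 1.29] with panobinostat, 1.10 [0.989 to 1.23] with givinostat and 1.16 [1.05 to 1.29] with ruxolitinib. The level lay above that of loop of Henle-like cells, at 3.11 to 7.72 CPM, and of T-like cells in every library. Endothelial-like cells overlapped it, at 21.7 to 114 CPM, as did stromal or mesangial-like cells, at 3.73 to 44.3 CPM. Intercalated-like cells held 3.22 to 25.6 CPM and principal-like cells 8.22 to 22.8 CPM. Thinned to 2500 UMIs, 6.67% to 8.48% of proximal tubule-like cells had an Fcgr2b UMI, and 25.0% to 36.0% did at full depth.

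The other myeloid transcripts were present there in another proportion. Fcer1g UMIs per Fcgr2b UMI in proximal tubule-like cells were 0.103 with panobinostat, 0.125 with givinostat and 0.136 with ruxolitinib, against 0.158 with vehicle. The same ratio was 3.17 to 4.84 in macrophage-like cells and 2.33 to 6.10 in loop of Henle-like cells. Fcgr3 UMIs per Fcgr2b UMI were 0.0156 to 0.0250 in proximal tubule-like cells and 0.797 to 1.19 in macrophage-like cells. Both ratios were thus lower in proximal tubule-like than in macrophage-like cells of every library. The source of the tubule Fcgr2b UMIs was not tested. Tubule cells with an Fcgr2b UMI held 3.50 to 6.25 CPM of Fcer1g over the 4 libraries and those without held 3.62 to 4.98 CPM. Fcgr3 stood at 0.679 to 1.55 CPM in tubule cells with an Fcgr2b UMI and at 0.293 to 0.656 CPM in those without. It was higher in the cells with an Fcgr2b UMI in every library, on 13 to 16 Fcgr3 UMIs of all tubule cells per library. The 11 macrophage markers, summed, stood at 346 to 611 CPM in tubule cells with an Fcgr2b UMI and at 331 to 541 CPM in those without. Tubule cells with an Fcgr2b UMI were deeper, at medians of 11094 to 17476 UMIs against 6712.5 to 10922 UMIs. Of 2106 such cells, 1504 had exactly 1 Fcgr2b UMI.

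The tubule Fcgr2b also varied between clusters of the epithelium. A cluster led by Slc5a12 and Slc6a19, transporters of the early proximal tubule, held 40.1 CPM over all libraries, and a cluster led by Slco1a1 and Slc7a13, transporters of its later part, held 24.6 CPM. The extremes over clusters of at least 50 cells were 46.2 and 22.1 CPM. The highest cluster held 51.7 CPM with panobinostat, 43.5 CPM with givinostat and 41.9 CPM with ruxolitinib, against 49.8 CPM with vehicle. The lowest held 22.6 CPM with panobinostat, 24.1 CPM with givinostat and 22.8 CPM with ruxolitinib, against 18 CPM with vehicle. The libraries of these clusters did not overlap, but the clusters were picked as the extremes of this same level. At 2500 UMIs per cell, 10.1% to 12.5% of cells in the highest and 3.27% to 5.74% in the lowest had an Fcgr2b UMI. Of 2843 windows of 50 bases in the last 600 bases of annotated Fcgr2b transcripts, 86 (3.02%) also occur in Fcgr3 transcripts, while the other members shared none. The antisense gene Gm38204 overlaps Fcgr2b on the opposite strand, and it gave 20 UMIs in proximal tubule-like cells over all libraries, beside 2923 of Fcgr2b. Whether the counting used strand is not given in the sources used here.

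**Figure D4:**
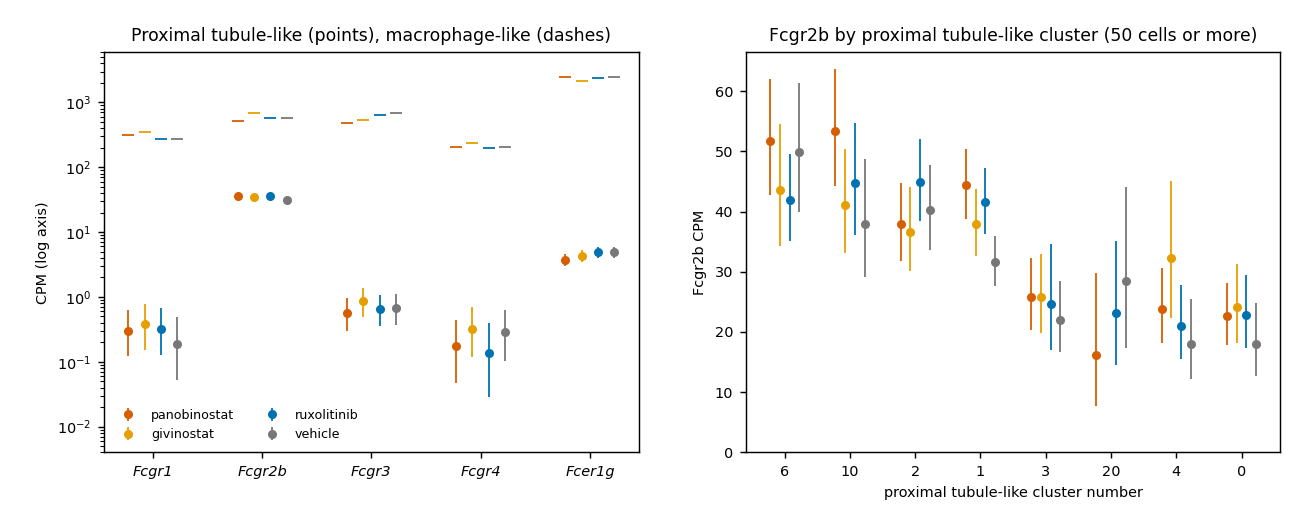
Left, level (CPM, log axis) of each gene in proximal tubule-like cells (points, exact 95% intervals) and in macrophage-like cells (dashes), by library. Right, Fcgr2b level in each proximal tubule-like cluster of at least 50 cells. Fcgr2b alone of the 5 genes stands between 31.2 and 36.2 CPM in tubule cells, and its clusters range between 22.1 and 46.2 CPM over all libraries.

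A cluster left unnamed, because it mixed tubule transcripts (Kap, Ttr, Miox) with macrophage genes, carried large Fcgr4 ratios. It held 119 cells with panobinostat, 72 cells with givinostat and 51 cells with ruxolitinib, against 67 cells with vehicle. Fcgr4 stood at 34.4 CPM with panobinostat, 51.1 with givinostat and 28.9 with ruxolitinib against 6.40 CPM with vehicle, the last on 5 UMIs. The ratio was 5.38 [2.13 to 17.4] with panobinostat, 7.99 [3.23 to 25.6] with givinostat and 4.52 [1.63 to 15.5] with ruxolitinib. Fcer1g there was 1.68 times vehicle with panobinostat, 1.5 times with givinostat and 1.88 times with ruxolitinib. Fcgr1 there was 2.56 [1.26 to 5.74] times vehicle with panobinostat, 3.93 [1.99 to 8.63] with givinostat and 3.69 [1.76 to 8.44] with ruxolitinib. Fcgr2b was 1.37, 1.72 and 1.98 times vehicle and Fcgr3 1.05, 1.22 and 1.39 times with these drugs, and each Fcgr3 interval included 1. The median depth of these barcodes was 10424 UMIs, and the part of tubule RNA in these values was not tested.

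Partners of the receptors were read from lists chosen with earlier results of these data known, over macrophage- and monocyte-like cells together and at the same 1.5-fold. Ratios over these pooled classes also carry their mix, which differed between libraries. Of 14 kinases, adaptors and GTPases that carry the Fc receptor signal, all 14 reached the floor, and only the adaptor Blnk passed, at 0.608 times vehicle with givinostat. Their median log2 ratio was 0.09 with panobinostat, 0.23 with givinostat and 0.04 with ruxolitinib, beside the medians over all genes given above. Within macrophage-like cells alone, 1 of the 14 was past 1.5-fold higher with givinostat and 0 lower, beside 16.1% of genes either way. Within classical monocyte-like cells 0 of 13 passed with givinostat. Lyn, the Src family kinase that phosphorylates both motif kinds, held in macrophage-like cells 269 CPM with panobinostat, 398 CPM with givinostat and 315 CPM with ruxolitinib, against 272 CPM with vehicle. In non-classical monocyte-like cells Lyn was higher, at 638 CPM with panobinostat, 772 CPM with givinostat and 592 CPM with ruxolitinib, against 579 CPM with vehicle. Fgr, a further kinase of that family, held 387 to 465 CPM in those cells. Rac2, a GTPase of phagocyte movement and oxidase activation, held 279 to 348 CPM in macrophage-like cells.

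Of the phosphatases and Dok proteins that act below ITIM receptors, 6 of 7 reached the floor, and Dok2 alone passed, at 0.595 times vehicle with givinostat. That holds for the pooled classes. Dok2 in macrophage-like cells alone was 0.811 [0.531 to 1.25] times vehicle with givinostat, within 1.5-fold. With panobinostat it was 0.789 there and with ruxolitinib 0.609 [0.377 to 0.981]. Ptpn11 was past 1.5-fold higher in macrophage-like cells with each drug, on 17 vehicle UMIs, and each interval included 1. Inpp5d, which encodes SHIP1, held in macrophage-like cells 163 CPM with panobinostat, 183 CPM with givinostat and 168 CPM with ruxolitinib, against 132 CPM with vehicle. Ptpn6, which encodes SHP-1, held 206 to 259 CPM there. Among ITAM adaptors 3 of 7 reached the floor over the pooled classes and none passed there with any drug. Tyrobp, an ITAM adaptor of many other myeloid receptors, held in macrophage-like cells 2407 CPM with panobinostat, 1913 CPM with givinostat and 2217 CPM with ruxolitinib, against 2401 CPM with vehicle, near the level of Fcer1g there. All 6 phagocyte oxidase genes, whose product makes the superoxide that follows receptor engagement, reached the floor and none passed over the pooled classes. None passed within macrophage-like or classical monocyte-like cells either. Within non-classical monocyte-like cells Ncf1 did, at 2.33 [1.38 to 4.07] times vehicle with panobinostat and 2.05 [1.28 to 3.44] with givinostat. With ruxolitinib it was 1.71 [1.01 to 2.98], and the vehicle value rests on 21 UMIs. Ncf4 there was 1.55 [1.13 to 2.14] times vehicle with panobinostat. Past 1.5-fold either way there were 19.7%, 14.9% and 16.5% of genes with the drugs in that order.

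Among other receptors that signal through the Fc gamma chain, 6 of 9 listed were in the matrix and 5 reached the floor. Clec4e (Mincle) was 2.45 times vehicle with givinostat and 1.53 times with ruxolitinib, and Pira2 was 1.59 times with panobinostat and 1.67 times with givinostat. Clec4n (Dectin-2) was lower with all 3 drugs, at 0.277 times vehicle with panobinostat, 0.493 with givinostat and 0.539 with ruxolitinib. Of these 5 receptors 2, 3 and 2 were past 1.5-fold with the drugs in that order, beside 6.08%, 6.49% and 4.02% of all genes and 0 of the 5 Fc gamma receptor genes with each. By class, Clec4n in macrophage-like cells was 0.311, 0.437 and 0.519 times vehicle with these drugs. In classical monocyte-like cells it was 0.602 [0.261 to 1.38], 1.09 and 1.06, and in non-classical monocyte-like cells 0.471, 1.26 and 0.809. Clec4e with givinostat was 1.61, 2.12 and 2.02 in these classes. Pira2 was past 1.5-fold only in classical monocyte-like cells, at 1.86 [1.21 to 2.92] with panobinostat, 1.73 [1.17 to 2.63] with givinostat and 2.00 [1.33 to 3.09] with ruxolitinib. It was 0.881, 1.35 and 0.714 times vehicle in macrophage-like cells with these drugs, and 0.665, 0.934 and 0.876 in non-classical monocyte-like cells. Clec4d did not pass when pooled. It was 0.385, 0.196 and 0.178 times vehicle in macrophage-like cells, on 11 to 14 UMIs, and 1.02 to 1.27 in the monocyte kinds. Of the 10 ITIM receptors listed, 9 reached the floor over the pooled classes and 1 passed, Cd72 at 0.458 times vehicle with panobinostat. Within macrophage-like cells 0 of 9 passed with panobinostat or givinostat and 2 with ruxolitinib, both higher, beside 15.4% of genes either way. Within classical monocyte-like cells 0 of 7 passed with panobinostat or givinostat and 1 with ruxolitinib, lower, beside 16% of genes. Of 8 other Fc receptor genes in the matrix only Fcgrt, the neonatal receptor that recycles IgG, reached the floor, and it did not pass. Proximal tubule-like cells held Fcgrt at 136 CPM with panobinostat, 119 CPM with givinostat and 117 CPM with ruxolitinib, against 144 CPM with vehicle, and macrophage-like cells held 125 to 149 CPM.

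Interferon gamma signalling is known to induce Fcgr1, and 7 of its 8 listed genes reached the floor. Over the pooled classes 2 of these 7 passed with givinostat, both higher, beside 6.49% of all genes either way. With panobinostat or ruxolitinib none did. The transcription factor Irf1 was among the 2, at 1.59 times vehicle. In macrophage-like cells 0, 2 and 2 of 7 passed with panobinostat, givinostat and ruxolitinib, all higher, beside 19.6%, 16.1% and 15.4% of genes either way. In classical monocyte-like cells 0, 1 and 0 of 7 passed, the 1 higher, beside 17.3%, 14.9% and 16% of genes. Within macrophage-like cells Irf1 was 1.66 [1.17 to 2.38] times vehicle with givinostat and 1.94 [1.37 to 2.78] with ruxolitinib. Fcgr1 in the same cells was 1.28 times vehicle with givinostat and 0.981 with ruxolitinib.

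The genes whose levels ran most like each member were ranked by Pearson correlation of log2(CPM + 5) over 51 class-by-library sums of 16 classes. These sums share libraries and differ in depth, so the values are descriptive. Fcgr1 ran with Aif1 (0.961), Clec4a2 (0.957), P2ry6 (0.944), Oas2 (0.942) and Siglece (0.939). Fcgr3 ran with the fractalkine receptor Cx3cr1 (0.952), Lilrb4a (0.927), Trf (0.927), Itgam (0.921) and Lyz2 (0.917). For Fcgr4 the list was the complement receptor C5ar1 (0.947), Slc11a1 (0.943), Trpm2 (0.934), Spic (0.926) and Adgre1 (0.925). For Fcgr2b it was Trf (0.927), P2ry6 (0.917), Plbd1 (0.915), Clec4a2 (0.906) and Zeb2os (0.905). Fcer1g ran with Tyrobp (0.986), Itgam (0.95), Sh2d1b1 (0.947), Plek (0.94) and Il10ra (0.921). Between members the value was highest for Fcgr1 with Fcgr3 (0.90) and lowest for Fcgr4 with Fcer1g (0.677).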

How the data were processed

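Whole-kidney cells of 4 libraries were profiled with 10x 3′ chemistry, per the labels' protocols. The authors' deposited values are raw UMI counts per gene and cell, made with Cell Ranger 3.0.1 on mm10, per the submitters' processing notes. The members and lists were chosen with earlier results of these data known. Cells with at least 200 genes, 500 UMIs and at most 50% mitochondrial UMIs were kept (15777 of 16003). Cells were clustered without the 5 members (scanpy 1.11.5, leidenalg 0.10.2, 2000 variable genes, 30 principal components, 15 neighbours, resolution 1.0) and clusters were named from marker lists. Scrublet marked 0.0682%, 2.30%, 0.302% and 0.0254% of cells in the panobinostat, givinostat, ruxolitinib and vehicle libraries. Apart from givinostat this is too few for the caller to have worked, so no cell was removed as a doublet. Counts were summed by class and library and divided by class totals. Ratios of classes needed 50 cells in both libraries. Those of the smaller Cd209a cluster did not meet this and rest on 15 to 35 cells per library. Genes named were all members, the 5 most alike each, and of each list the 4 most abundant and any past 1.5-fold, apart from genes not reported here. Ratio scripts were tested on simulated data. The alternatives included edgeR 4.0.16 (TMM) and DESeq2 1.42.0 totals, with no count model fitted.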

Additional observations from a re-analysis of the deposited data

Results flagged for a closer look

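Fcgr1 with givinostat lay on opposite sides of vehicle in a pair of classes of the same library. Its log2 ratio, drug over vehicle on log2(CPM + 5), was 0.99 in classical monocyte-like cells and -0.63 in Cd209a dendritic-like cells. The counts were 277 UMIs with givinostat and 35 with vehicle in the monocyte-like cells, and 73 UMIs with givinostat and 81 with vehicle in the dendritic-like cells. With cells named one by one the log2 ratios were 0.58 and -0.09. The difference between the classes was not tested, since each group is 1 library.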

How the results depend on the processing

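No paired analysis was possible because each group is 1 library, and no replicate could be left out. No ratio past 1.5-fold changed direction under an alternative. Of 930 recomputed log2 ratios 856 stayed within their counting interval and 74 did not, while 650 of 835 levels stayed. The ratios that stayed include 84 of 84 each for pseudocounts of 1 and 20 CPM, Scrublet doublets left out and shared barcodes left out. Leaving out doublets or shared barcodes took out few cells and could move little. Of the 930, 60 had the other sign, 20 of them where the main interval left out 1, mostly Fcgr2b and Fcgr3 in Cd209a dendritic-like cells at other resolutions or in the larger cluster alone. Counting the unnamed tubule and macrophage cluster as macrophages moved 22 of 84 ratios and naming cells one by one moved 16, against 4 with DESeq2 size factors and 3 with TMM. Naming cells one by one left 1 member past 1.5-fold with panobinostat over macrophage- and monocyte-like cells together (Fcgr2b, log2 ratio -0.63), where the clusters gave 0, and the cause was not tested. The Fcgr2b share of receptor UMIs was 28.0% with givinostat and 28.5% with ruxolitinib when the classes had equal weight, an alternative chosen after seeing the data. It was 35.0% with vehicle at clustering resolution 0.5, where the macrophage-like class took in the smaller Cd209a cluster. Shares of cells with a UMI moved in 45 of 60 cases when cells were thinned to fewer UMIs.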

Other observations

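Fcgr1 in endothelial-like cells stood at 20 CPM with panobinostat, 66.4 CPM with givinostat and 7.24 CPM with ruxolitinib, against 12.8 CPM with vehicle. The givinostat value rests on 52 UMIs and the others on 4 to 8. All 5 members had their highest level of the 4 libraries with givinostat there. Fcer1g stood at 633 CPM with givinostat, against 129.98 CPM with vehicle, and Fcgr3 at 112.4 CPM with givinostat, against 23.8 CPM with vehicle. Fcgr2b stood at 114 CPM with givinostat, against 25.6 CPM with vehicle, and Fcgr4 at 35.8 CPM with givinostat, against 18.3 CPM with vehicle. Lyn, a kinase of myeloid and other cells, stood in the same cells at 97.6 CPM with panobinostat, 212 CPM with givinostat and 116 CPM with ruxolitinib, against 49.4 CPM with vehicle, and the part of RNA from myeloid cells in these values was not tested.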
